A study of Mus musculus with 4 samples.

Results

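Cd28, Ctla4 and Icos encode related receptors of T cells and lie next to each other on mouse chromosome 1. Their stretch of chromatin was described here over chromosome 1 from 60.74 to 61.13 Mb of the mm9 build, a window that holds the genes in the order Cd28, Ctla4, Icos from low to high coordinate. Every accessible region overlapping the window was taken as a member, which gave 95 of the 84476 regions measured in the series. All 95 lay wholly inside the window. The choice used positions only and no measured level.

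CD28 is the main costimulatory receptor of T cells and binds CD80 and CD86 on antigen-presenting cells. CTLA-4 binds the same ligands more tightly, acts as an inhibitory receptor and is carried at high level by regulatory T cells, which use it to take CD80 and CD86 away from other T cells. ICOS is an inducible costimulatory receptor with a ligand of its own and is found on activated and effector regulatory T cells.

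The chromatin was measured by ATAC-seq, in which a transposase places sequencing adapters into open DNA, so that the reads in a region reflect its accessibility. The cells were regulatory T cells, sorted as living CD4+ TCRβ+ cells in the brightest 50% for CD25, from spleen and lymph node of male NOD mice aged 8 to 10 weeks. NOD is a strain that develops autoimmune diabetes. The samples differed in Flicr, a long noncoding RNA gene next to Foxp3: 2 libraries came from Flicr WT mice and 2 from Flicr KO mice, with 50000 cells in each library. The labels do not state how the knockout was made, nor whether the replicates were separate animals, so a p-value here reflects variation between these libraries alone, which could be technical. Levels are in RPKM, read numbers corrected for how long a region is and how many reads its library has.

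The libraries held 19514512 to 41809276 reads. The share of these that fell in regions was 24.2% and 31.1% in Flicr WT replicates 1 and 2. It was 35.1% in Flicr KO replicate 1, and Flicr KO replicate 2 lay between that library and Flicr WT replicate 2. Both KO libraries thus had a higher share than both WT libraries, so the share differed along with genotype in each comparison of KO with WT. A lower share lowers the RPKM of most regions together. Flicr WT replicate 1 was the lowest of the 4 libraries in 63.2% of the regions of the window and in 51.4% of all regions. Its median region stood at 1.92 RPKM, and those of the other libraries at 2.46 to 2.54 RPKM. For this reason the genotypes were compared both as deposited and with each library centred on its own median.

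Among the genes of the mouse RefSeq table for assembly GRCm38.p6, 11 run from Cd28 to Icos. The only protein-coding ones are Cd28, Ctla4 and Icos. Between Cd28 and Ctla4 lie the noncoding RNA genes 2310016D23Rik, Gm38137 and Gm39650 and 3 pseudogenes, and between Ctla4 and Icos lie the noncoding RNA gene Gm34649 and the pseudogene Gm11582. The region files name no genes and are of another build than this table, so no region was assigned to a gene or to a promoter, and the cell type could not be checked against marker genes.

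The promoter of Ctla4, the member best known for its role in regulatory T cells, is shown to give the sequence around the start of the gene that lies in the middle of the cluster. It is the RefSeq sequence of GRCm38.p6, on the plus strand, from 250 bases before the start of the gene to 50 after it. Capitals mark matches on either strand to TATAAA, the core of the TATA box, and to GGAAA, the core that NFAT factors bind downstream of the T cell receptor.
Ctla4: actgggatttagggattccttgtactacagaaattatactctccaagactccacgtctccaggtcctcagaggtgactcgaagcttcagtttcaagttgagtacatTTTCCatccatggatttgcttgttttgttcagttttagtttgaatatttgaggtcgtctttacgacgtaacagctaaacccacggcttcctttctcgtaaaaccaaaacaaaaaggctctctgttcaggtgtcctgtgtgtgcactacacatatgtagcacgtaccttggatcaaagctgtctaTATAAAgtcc
The match to TATAAA begins 40 bases past the start that RefSeq gives, and 13.6% of the 32851 promoters of the same length hold one. The match to GGAAA is on the minus strand, where it reads TTTCC on the strand printed, and 61.3% of the promoters hold one. The matches overlap no other match, and they are letters in a sequence, not measured binding sites.

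The window was densely filled with accessible regions. It held 24.4 regions per 100 kb, against 7.69 in the stretch of equal length on either side (30 regions each) and 3.21 over chromosome 1. On a grid of tiles of the window's length, laid so that the window is 1 tile, 4825 tiles of the genome held a region, with a median of 14. As many regions as in the window were found in 4 tiles, the window included. Its regions covered 91850 bases, or 23.6% of its length, and 2 tiles, again with the window, had as much covered. The neighbouring stretches had 5.11% covered on the low side and 4.18% on the high side.

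This density came with broad regions. In the window 12 regions were 2000 bp or wider, which is 12.6% of its members, against 3.39% of all regions, and they held 49.5% of the window's reads over the 4 libraries. Regions of 251 bp or less, the smallest width in the window, made up 21.1% of the members and 32.1% of all regions, and took 1.31% of the window's reads. The median width was 467 bp, and 377 bp over all regions. Width and level went together across the members (Spearman's rho 0.68, n = 95 regions), as across all regions (0.56). The points share libraries, and a wide region may be wide because reads are many there.

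The spacing was uneven. The median gap between neighbours was 1396 bp, 38 of the 94 gaps were under 1000 bp, and 6 were over 10 kb. The longest gap, 21105 bp, lay between the regions at 60770142 to 60771679 and 60792785 to 60793035. The next, 18422 bp, ran from the end of the region at 60890267 to 60890914 to the start of that at 60909337 to 60911562. The last of the longest 3, 12173 bp, separated the regions at 61060998 to 61061248 and 61073422 to 61073972.

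Regions at most 10 kb from the next formed 7 groups, 3 of them single regions. The largest held 50 regions over 152 kb, from 60909337 to 61061248, and took 56.1% of the window's reads in each Flicr WT library and 57.4% and 57.6% in KO. Toward low coordinates, 17 regions over 46.2 kb, from 60792785 to 60838990, took 27.5% and 25.6% in WT and 24.5% and 24.1% in KO. At the high end, 19 regions over 51.9 kb, from 61073422 to 61125342, took 10.1% and 10.6% in WT and 10.9% and 10.6% in KO. The remaining group had 6 regions, from 60862229 to 60890914, and took between 2.44% and 3.12% in each library. The long dense stretch thus held more than the other groups together in all 4 libraries.

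**Figure D1:**
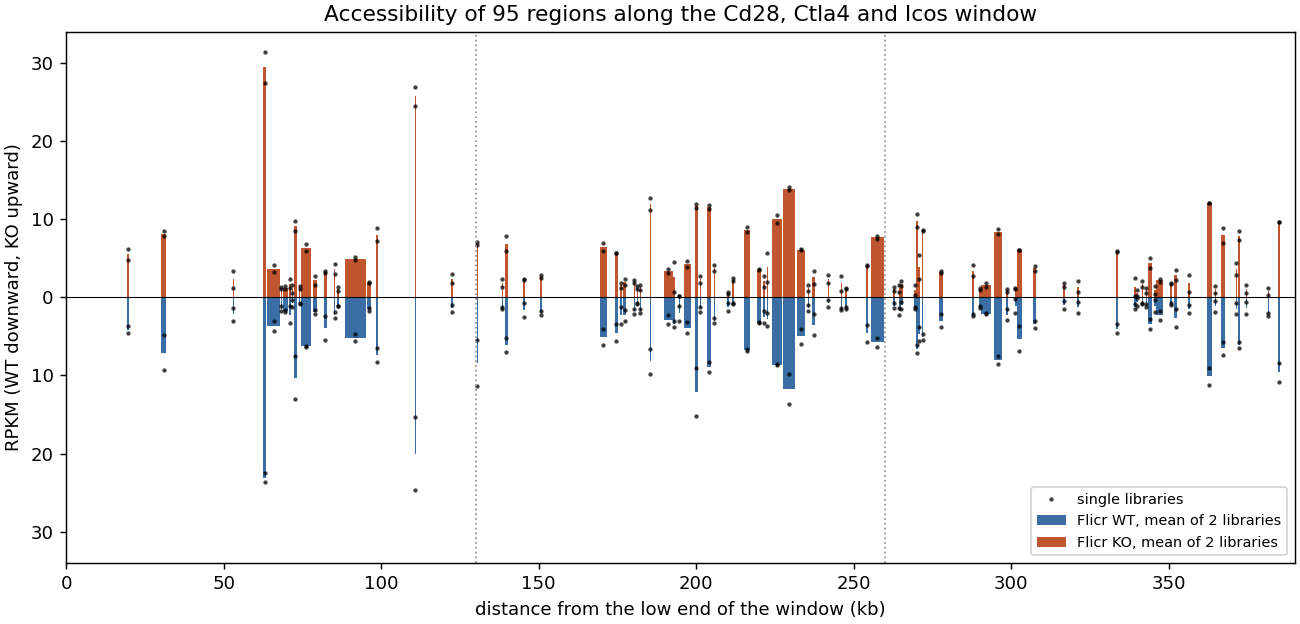
RPKM of the 95 regions of the window against the distance from its low end in kb, with Flicr KO upward and Flicr WT downward. Bars are the mean of 2 libraries, drawn at the width of the region with a minimum of 0.5 kb, points are single libraries, and dotted lines part the window into segments of 130 kb. The profile has the same shape in both genotypes, with the tallest bars 63.0 and 110.8 kb from the low end.

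Cut into segments of equal length, the window held 21 regions in the low 130 kb, 37 in the middle and 37 in the high segment. The low segment held the 2 most accessible regions but also 4 gaps over 10 kb. In the middle segment 30.1% of the length was covered, against 20.8% in the low and 19.7% in the high segment, and 7 of the 12 regions of 2000 bp or more lay there. Narrow regions were most frequent in the high segment, with 12 of its 37 members at the smallest width. The median region of a segment stood at 2.94 RPKM over the 4 libraries in the low, 3.03 RPKM in the middle and 1.64 RPKM in the high segment.

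Most members were of ordinary level. The median over the 95 was 2.36 RPKM, against 2.22 RPKM over all regions, and 44 lay below the median of all regions. Only 10 were above the 90th percentile of all regions. Means over the 4 libraries ran from 0.595 to 26.3 RPKM.

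A pair of regions in the low segment stood above the rest. The region at 60802466 to 60803544 was the most accessible of the window by its mean, which lay at the 98.8th percentile of all regions. It was at 22.5 and 23.7 RPKM in Flicr WT replicates 1 and 2 and reached 31.5 and 27.5 RPKM in replicates 1 and 2 of Flicr KO, the order in which libraries are given throughout. The KO values were both above the WT values, and the difference on the log2(RPKM + 1) scale was 0.34 (SE 0.23, 95% CI −0.12 to 0.80, limma adjusted p 0.667). Centring lowers every log2 fold change by the same 0.14, to 0.20 in this region, and left both KO values on top.

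The region at 60850649 to 60851024 is narrow, 376 bp, and stood alone, with 11658 bases free before it and 11204 after it. It was at 15.3 and 24.7 RPKM in WT and at 27.0 and 24.6 RPKM in KO. Flicr WT replicate 1 was low and the other three libraries were close together, so that the genotypes overlapped (log2 fold change 0.39, SE 0.24, limma adjusted p 0.637). The order of this pair was not fixed: the isolated region was the higher one in Flicr WT replicate 2 and the lower one in the other libraries.

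The next 10 regions by level lay between 8.22 and 12.8 RPKM in the mean. The first of them, at 60967570 to 60971322, is 3753 bp wide and collected 1074 and 1661 reads in WT and 2212 and 1011 in KO. It was at 9.79 and 13.7 RPKM in WT and at 14.1 and 13.8 RPKM in KO, and the KO libraries lay just above both WT libraries. Its neighbour at 60964178 to 60967306, 263 bases before it, was at 8.71 and 8.52 RPKM in WT and at 10.6 and 9.60 RPKM in KO, again without overlap of the genotypes. Neither passed the test, with log2 fold changes of 0.25 (SE 0.25) and 0.21 (SE 0.26). After centring these were 0.11 and 0.07, and the genotypes overlapped in the second region. With quantile normalization the values of both regions turned negative, to −0.08 and −0.11.

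Further strong regions of the middle segment differed in how the genotypes lay. At 60939498 to 60940620 the WT libraries, at 9.02 and 15.2 RPKM, enclosed the KO libraries, at 11.9 and 11.5 RPKM, and the log2 fold change was −0.0028. At 60943339 to 60944693 WT was at 8.24 and 9.52 RPKM and KO at 11.3 and 11.9 RPKM, a log2 fold change of 0.35 (SE 0.26). At 60925182 to 60925682 WT was at 6.57 and 9.75 RPKM and KO at 12.7 and 11.3 RPKM. This last region had the largest fold change among the 12 most accessible ones, 0.53 (SE 0.26, limma p 0.0519, adjusted p 0.556), so that it missed the threshold before and after adjustment.

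In the high segment, the region at 61102145 to 61103650 was at 9.00 and 11.3 RPKM in WT and at 12.2 and 12.1 RPKM in KO. That at 61009810 to 61010251 was at 6.05 and 7.14 RPKM in WT and at 9.00 and 10.7 RPKM in KO (log2 fold change 0.51, SE 0.27, limma adjusted p 0.571). In both of these the KO libraries lay above the WT libraries. The genotypes overlapped in the regions at 61034432 to 61037229 (7.51 and 8.57 RPKM in WT, 8.81 and 8.10 RPKM in KO) and at 61124876 to 61125342 (8.37 and 10.9 RPKM in WT, 9.65 and 9.68 RPKM in KO). The last of the 12, at 60812319 to 60813133 in the low segment, was at 7.56 and 13.0 RPKM in WT and at 8.58 and 9.82 RPKM in KO, and here too WT enclosed KO. Of these 5 regions, only that at 61124876 changed in whether the genotypes overlapped after centring. Both KO values there then lay below both WT values (centred log2 fold change −0.12).

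The ranking of the strong regions was much the same in each library. Of the 12 with the highest mean, 11 were among the 12 highest in replicate 1 of Flicr WT and replicate 2 of Flicr KO, and 10 in the other libraries. Of the window's reads, they took 41.2% and 39.3% in WT and 41.9% and 40.5% in KO. From the third to the twelfth place, the ranges of neighbours in this order overlapped over the 4 libraries. In 11 of the 12, Flicr WT replicate 1 had the lowest level.

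**Figure D2:**
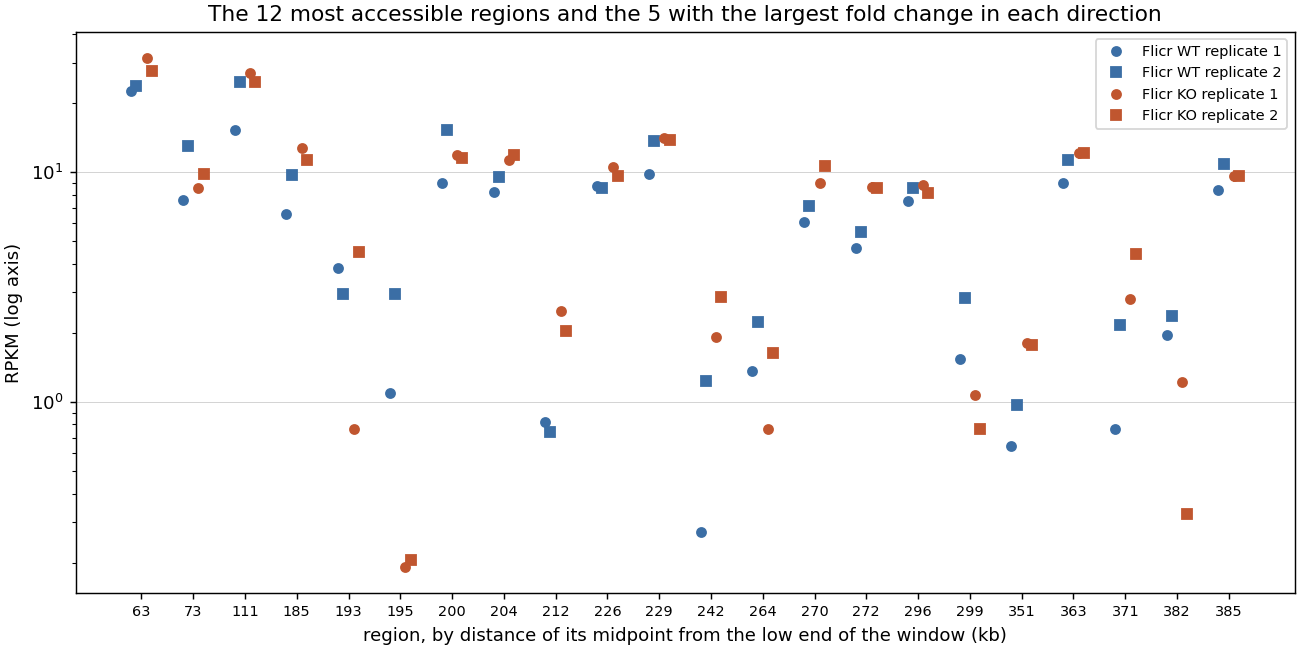
RPKM on a log axis in each of the 4 libraries for the 12 most accessible regions of the window and the 5 of largest rise and the 5 of largest fall in the fitted fold change, ordered by the distance of the midpoint from the low end in kb. The libraries lie closest together in the strong regions, and the widest spread is seen among regions under 5 RPKM, such as that 194.6 kb from the low end, where both KO libraries are near 0.2 RPKM.

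The question of the comparison was whether loss of Flicr changed the accessibility of the window. A mean of at least 1.01 RPKM was needed for testing, and 91 of the 95 members passed this filter. The 4 left out, at 60811620, 60949895, 61079753 and 61082741, had means of 0.595 to 0.965 RPKM. None of the 91 passed limma's test, neither higher nor lower in KO, with adjusted p from 0.495 to 0.998. Among all 80254 regions tested, 0.0187% were called higher and 0.0% lower. Limma voom on read numbers also called none in the window.

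At an unadjusted p under 0.05, limma found 3 members higher and 1 lower in KO, which is 4 of 91, where 8.22% of all tested regions were higher and 0.842% lower. With each library centred on its median, 2 were higher and 3 lower, against 6.0% and 2.05% of all regions, and none of the 91 passed (lowest adjusted p 0.583). All regions together gave 0.0% calls after centring.

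As deposited, 60 of the 91 members had a higher mean of log2 values in KO and 31 a lower one, which is 65.9% higher, against 71.0% of all tested regions. Log2 fold changes had a median of 0.14 over the members and 0.21 over all tested regions. After centring, the medians were 0.0029 and 0.07, and 46 members were above 0 and 45 below, which is 50.5% above 0, against 58.0% of all tested regions. A common shift of 0.14 was thus taken out of every region by centring. Without Flicr WT replicate 1 the median of the window was −0.03, and without Flicr WT replicate 2 it was 0.36.

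The genotypes separated with both KO values on top in 31 of the 91 members (34.1%) and in 33.2% of all tested regions. They separated with both WT values on top in 6 members (6.59%), against 7.81% of all. After centring the counts were 23 (25.3%) and 12 (13.2%), against 24.6% and 13.9%. These shares are near the background in each case. Among the 12 most accessible members, 7 had both KO values on top as deposited, and 6 after centring. Both WT values were on top in 0 of these 12 as deposited and in 1 after centring. Regions of like level outside the window were not counted, so whether these 12 differ from them was not tested.

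**Figure D3:**
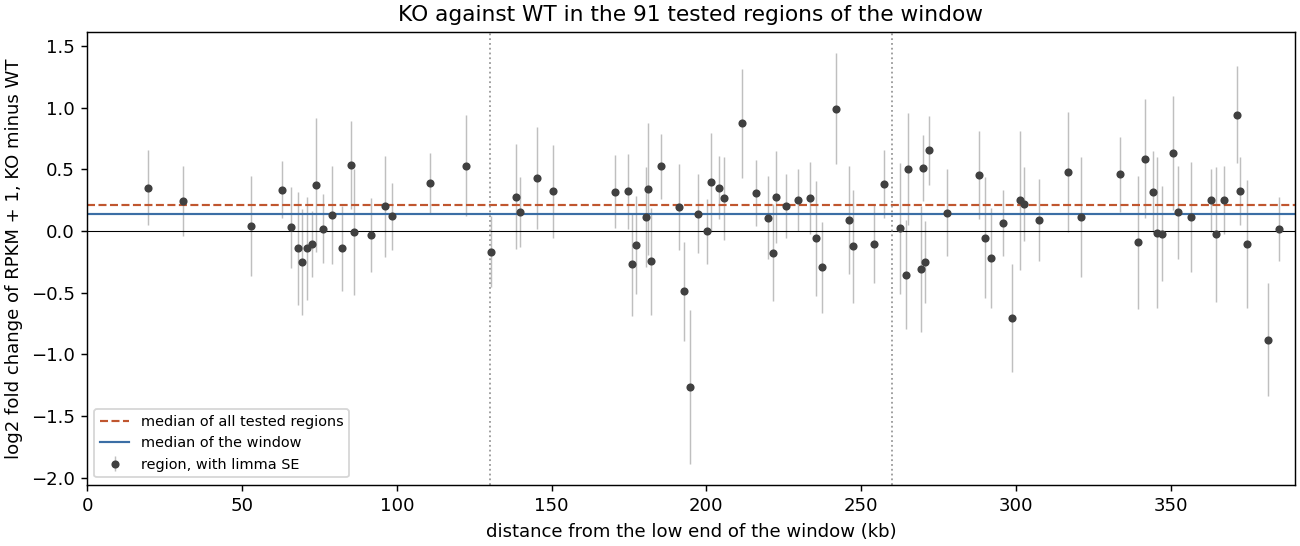
Log2 fold change of RPKM + 1, KO minus WT, of the 91 tested regions against the distance from the low end of the window in kb, with limma's SE as bars. The solid line is the median of the window (0.14) and the dashed line that of all tested regions (0.21), and dotted lines part the segments of 130 kb. Points scatter around both lines along the whole window, and the farthest ones, from −1.27 to 0.99, have wide errors.

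By segment, the median log2 fold change was 0.08 over the 20 tested regions of the low segment, 0.20 over the 36 of the middle and 0.12 over the 35 of the high segment. After centring they were −0.06, 0.06 and −0.02. Whether the segments differ was not tested, and each of the 91 regions had its own error, with a median SE of 0.38. The 12 broad regions had log2 fold changes from −0.22 to 0.38, with a median of 0.17. The widest, 6424 bp at 60828585 to 60835008, was at 4.68 and 5.62 RPKM in WT and at 5.21 and 4.79 RPKM in KO, with a log2 fold change of −0.03 (SE 0.30). After centring this was −0.17, and both KO values were then below both WT values. The next, 4086 bp at 60995398 to 60999483, was at 5.15 and 6.28 RPKM in WT and at 7.55 and 7.89 RPKM in KO (0.38, SE 0.28, limma adjusted p 0.691). The region at 60803827 to 60807782, 3956 bp, was at 3.01 and 4.24 RPKM in WT and at 3.25 and 4.15 RPKM in KO (0.03, SE 0.33).

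The largest positive fold changes belonged mostly to weak regions. At 60981723 to 60981973, WT was at 0.274 and 1.23 RPKM and KO at 1.91 and 2.87 RPKM, on 2 and 10 reads in WT and 20 and 14 in KO (log2 fold change 0.99, SE 0.45, limma adjusted p 0.527). At 61111268 to 61111582, WT was at 0.763 and 2.16 RPKM and KO at 2.82 and 4.41 RPKM, on 7 to 37 reads (0.94, SE 0.39). At 60951415 to 60951665, the WT libraries were at 0.821 and 0.740 RPKM, on 6 reads each, and the KO libraries at 2.49 and 2.05 RPKM, on 26 and 10 reads (0.87, SE 0.44). In each of these the genotypes did not overlap, but the regions were picked for large fold changes, which favours such separation. Of all tested regions, 33.2% had both KO values on top.

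The other regions with large positive values lay in the high segment. At 61011617 to 61012156, 697 bases past a neighbour, WT was at 4.70 and 5.50 RPKM and KO at 8.61 and 8.56 RPKM. This is the only one of these 5 regions with a mean above 5 RPKM, on 74 and 96 reads in WT and 194 and 90 in KO, and the gap between the genotypes was wider than the spread within either (log2 fold change 0.66, SE 0.28, limma p 0.0228, adjusted p 0.507). At 61090481 to 61090798, WT was at 0.647 and 0.973 RPKM and KO at 1.81 and 1.78 RPKM (0.63, SE 0.46).

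The largest negative fold changes also came from few reads. At 60934449 to 60934699, WT was at 1.09 and 2.96 RPKM, on 8 and 24 reads, and KO at 0.191 and 0.205 RPKM, on 2 reads and 1. The lowest value in the files is 1 read, so the 1 may have been 0. From 3 reads in KO and 32 in WT the ratio of KO to WT per library read was 0.0942, with an exact 95% interval of 0.0185 to 0.301. That interval takes each read as independent, so it is too narrow where both mates of a fragment were counted. The fitted log2 fold change was −1.27 (SE 0.62, limma p 0.0486, adjusted p 0.549). In the next region on the low side, at 60932797 to 60933047, the KO libraries were at 0.765 and 4.51 RPKM and so enclosed the WT libraries, at 3.83 and 2.96 RPKM (−0.49, SE 0.40).

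At 61121413 to 61121726, WT was at 1.97 and 2.37 RPKM and KO at 1.22 and 0.327 RPKM, the last on 2 reads (−0.88, SE 0.46). At 61038530 to 61038931, 1300 bases past the strong region that begins at 61034432, WT was at 1.54 and 2.85 RPKM and KO at 1.07 and 0.767 RPKM (−0.71, SE 0.44). In both, the KO libraries were below the WT libraries, but these regions too were picked for large fold changes. Of all tested regions, 7.81% separated in this direction. The genotypes overlapped at 61004382 to 61004632, with 1.37 and 2.22 RPKM in WT and 0.765 and 1.64 RPKM in KO (−0.36, SE 0.44), and after centring both KO values were below both WT values. None of these passed, and the lowest adjusted p among the negative ones was 0.549.

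None of the 6 regions beside the longest gaps passed limma's test (adjusted p 0.655 to 0.985). As deposited, their log2 fold changes were all above 0, as were those of 71.0% of all tested regions. After centring, those at 60792785 and 61060998 were −0.10 and −0.03, and the others stayed above 0. Both KO values were on top in 2 of the 6, as deposited and after centring, against 33.2% and 24.6% of all tested regions. The first, at 60890267, was at 1.69 and 2.29 RPKM in WT and at 2.51 and 2.93 RPKM in KO (log2 fold change 0.32, SE 0.38). The second, at 61073422, was at 3.42 and 4.6 RPKM in WT and at 5.91 and 5.78 RPKM in KO (0.46, SE 0.30). It had the largest fold change of the 6, and 0.32 after centring.

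In the other 4 the genotypes overlapped. The region at 60770142, before the longest gap, was at 4.85 and 9.25 RPKM in WT and at 8.53 and 7.87 RPKM in KO (0.25, SE 0.28). The one after it, at 60792785, was at 1.37 and 2.96 RPKM in WT and at 3.44 and 1.23 RPKM in KO (0.04, SE 0.41). In both, a pair of libraries of one genotype lay further apart than the means of the genotypes. At 60909337, WT was at 4.0 and 6.10 RPKM and KO at 7.01 and 5.90 RPKM (0.32, SE 0.29). At 61060998, WT was at 0.547 and 1.97 RPKM and KO at 0.765 and 2.05 RPKM (0.11, SE 0.48). The remaining 64 members had means of up to 7.72 RPKM, and the 60 of them that were tested had log2 fold changes from −0.31 to 0.59, with 37 above 0 and 23 below.

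With Flicr WT replicate 2 left out, limma called 3 members higher in KO, when it also called 6440 regions higher and 18 lower in all. That fit set 1 WT library, the one with the lowest share of reads in regions, against 2 KO libraries. The spread then came from the KO pair alone, and the lone WT library was assumed to vary like it, so the p-values carry no variation between WT libraries. The 3 were the regions at 60850649 (log2 fold change 0.71, adjusted p 0.00112), 60925182 (0.78, adjusted p 0.0167) and 61111268 (1.37, adjusted p 0.0442). With any of the other libraries left out, none was called.

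Replicates of a genotype were not closer to each other than libraries of different genotype in every pairing. After centring, the median absolute log2 difference over the 95 regions was 0.24 for the KO pair, 0.29 for the WT pair and 0.26 to 0.29 for the mixed pairs. Pearson's correlation of log2(RPKM + 1) across the 95 regions was 0.88 for the KO pair, 0.89 for the WT pair and 0.87 to 0.90 for the mixed pairs. These are descriptions over regions, which are not replicates.

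The part of each library's region reads that fell in the window is free of any factor common to all regions. A factor that acts unequally on regions would still change it. The share of library reads in regions also separated the genotypes, and whether it bears on this part was not tested. The part was 0.166% and 0.169% in Flicr WT, on 11757 and 17072 reads, and 0.152% and 0.155% in Flicr KO, on 22324 and 10289 reads. The KO values were both below the WT values, with means of 0.154% ± 0.0019 in KO and 0.168% ± 0.00248 in WT (SD, n = 2 each; exact two-sided permutation p = 0.3333, the smallest that 2 libraries against 2 allow). Over the 4825 tiles of the same length, the genotypes separated with KO lower in 19.5% and with KO higher in 17.9%. Among the 95 tiles with 60 or more regions, a bound set after seeing the data, KO was lower in 37.9% and higher in 4.21%, so that the order seen in the window was common in dense tiles.

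Each segment, being a part of the window, showed the same order of means. Tiles of 130 kb were not counted, so how often a stretch of that length separates the genotypes was not tested. The low segment took 0.0523% and 0.0516% of the region reads in WT and 0.0449% and 0.0450% in KO, without overlap. In the high segment the values were 0.0369% and 0.0380% in WT and 0.0342% and 0.0341% in KO, also without overlap. The middle segment, at 0.0767% and 0.0797% in WT and 0.0733% and 0.0759% in KO, had the KO libraries below both WT libraries too, with the smallest distance between the nearest libraries. As a part of all library reads the order of the means was the opposite, with KO above WT, so the direction depends on what the window is measured against. On that measure Flicr WT replicate 2 lay close to both KO libraries. Flicr WT replicate 1, with 24.2% of its reads in regions, lay well below the other libraries.

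**Figure D4:**
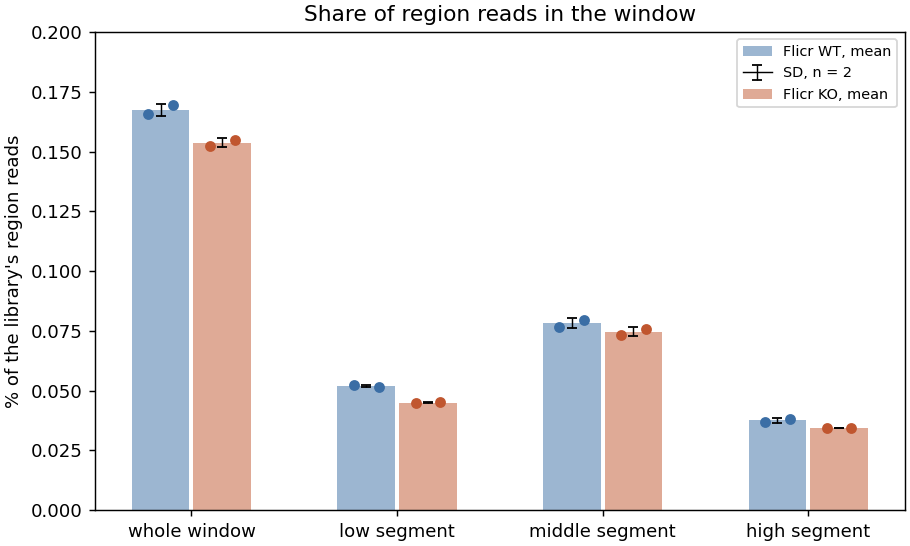
Percent of each library's region reads that fell in the window and in its low, middle and high segments of 130 kb. Bars are means of 2 libraries, error bars are SD (n = 2) and points are single libraries. The KO points sit below the WT points for the window, at 0.152% and 0.155% against 0.166% and 0.169%.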

How the data were processed

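Regulatory T cells were profiled by ATAC-seq in 2 Flicr WT and 2 Flicr KO libraries, sequenced paired-end with a 75-bp kit. Per the submitters' processing notes, the authors used Bowtie2, Picard 1.130, SAMtools, HOMER 4.6 and DiffBind with mm9; which tool did what, how regions were called, duplicate handling and transposase offset are not given in the sources used here. The authors deposited 1 RPKM value per region and library, per the file headers, over a common region list. Coordinates count from 1.

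RPKM times the region width less 1 bp was a whole multiple of 1 step for 100% of regions (tolerance 0.001 reads), which gave the reads per region. Between 78.8% and 85.5% of these were even, as when mates count separately. An interval on reads treats them as independent, so it covers counting error at most and is then too narrow. The test was limma 3.58.1 (R 4.3.3, trend and robust) on log2(RPKM + 1), which understates changes of weak regions. It ran over all regions with a mean RPKM at or above the 5th percentile, with Benjamini-Hochberg adjustment over all 80254 and a threshold of 0.05. The same fit was run on simulated reads with each library centred on its median, so that check did not cover uncentred values. Centring subtracted each library's median log2 value over all regions. Shares were compared by an exact permutation test (scipy 1.17.1), with pandas 2.3.3, numpy 2.4.6 and matplotlib 3.10.9 on Python 3.11.15. Regions given singly were the 12 with the highest mean, the 5 most positive and 5 most negative fold changes, the 3 widest and those beside the 3 longest gaps. Alternatives covered scaling, pseudocount, filter, test, left-out libraries and the replicate number as a block. The members and rules were chosen with earlier results of these data known.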

Additional observations from a re-analysis of the deposited data

How the results depend on the processing

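Besides leaving out single libraries, 11 settings left the count of called members at 0: median centring, quantile normalization, scaling to region reads, a pseudocount of 0.1 or 5, no filter, a filter at the 25th percentile, voom scaled to all library reads or to region reads, no trend, and the replicate block. Leaving out a library gave 0 to 3 calls. The median log2 fold change of the members, 0.14, was −0.048 with quantile normalization, −0.091 scaled to region reads and −0.12 with voom on region reads. With median centring it was 0.0029. These alternatives remove a common shift by construction. The median was −0.029 to 0.36 when a library was left out. Over the remaining settings it ran from 0.063 with a pseudocount of 5 to 0.24 with voom on all library reads. After centring, 12 members (13.2%) in place of 6 (6.59%) had both KO libraries below both WT libraries. The share of all tested regions moved likewise, from 7.81% to 13.9%. The difference in the window's share, −0.014 percentage points of region reads, was 0.0066 as a percent of all library reads, and −0.016 to −0.012 when a library was left out. With the replicate number as a block the count of called members was 0, the median 0.14, and 42 regions were called in all against 15. The labels do not say that a number links the libraries, and across regions the differences between replicates 1 and 2 in KO and WT correlated at 0.0031. Of 462 fold changes of singly described members under the alternatives, 409 kept their sign without a call, 3 kept it with one, and the sign turned in 50, always without a call. Reads limit the weak members: several rest on 10 reads or fewer in a library, where a difference within the counting error was not detectable.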
